A study of Mus musculus with 6 samples.

Results

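The chromosome 6 interval that holds the mouse genes Gdf3, Dppa3 and Nanog was read across the peak lists of 5 chromatin proteins. Every peak overlapping chr6:122550000-122720000 (mm9) by at least 1 bp was taken, and 57 of the 70533 peaks in the 5 lists did so. The Nanog list gave 15 of its 17272 peaks, the Tgif2 list 15 of 19129, the Tgif1 list 11 of 16400, the Hdac1 list 10 of 16506 and the Smad3 list 6 of 1226. Binding had been mapped by ChIP-seq, which sequences the DNA pulled down with a protein, in mouse embryonic stem (ES) cells of the J1 line grown in serum with leukemia inhibitory factor. All cells carried BirA, a bacterial ligase that puts biotin on tagged proteins. Tgif1, Hdac1 and Smad3 were pulled down with antibodies against them, and Nanog and Tgif2 with streptavidin beads, per the labels. Each protein had 1 library, so no value has a replicate check and no test between conditions was possible. The mock pulldown was not analysed here, and with no expression data the labelled cell type could not be checked against markers.

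Nanog is a homeodomain transcription factor that sustains the pluripotent state of ES cells, and its expression is kept up by enhancers upstream of the gene. Dppa3, also called Stella or PGC7, is a maternal factor that protects DNA methylation in the early embryo and marks germ cells. Gdf3 is a secreted ligand of the TGF-beta family that is expressed in pluripotent cells. Smad3 is the nuclear effector of TGF-beta and Activin receptors. Tgif1 and its paralog Tgif2 are homeodomain corepressors that bind Smad proteins, and Hdac1 removes acetyl groups from histones as part of corepressor complexes. In the RefSeq annotation of GRCm38.p6 the order of the genes is Apobec1, which encodes an RNA-editing deaminase, then Gdf3, Dppa3, Nanog and Slc2a3, which encodes a glucose transporter. A small nucleolar RNA and 3 pseudogenes are annotated between Dppa3 and Nanog.

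Positions are given as distances from a Nanog start near 122657600 in mm9, where upstream is the side of Dppa3 and Gdf3. That start is an approximate position, so short distances are only as good as it. The mm9 positions of Dppa3 and Gdf3 were not used here, and peaks on that side are therefore given by distance and are not assigned to either gene. For Nanog itself, peaks of all 5 lists covered the start. The promoter is shown for that reason, as RefSeq gives it on the + strand of GRCm38.p6 at chr6:122707315-122707614, from 250 bases before a Nanog start to 50 bases after it.

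Nanog promoter: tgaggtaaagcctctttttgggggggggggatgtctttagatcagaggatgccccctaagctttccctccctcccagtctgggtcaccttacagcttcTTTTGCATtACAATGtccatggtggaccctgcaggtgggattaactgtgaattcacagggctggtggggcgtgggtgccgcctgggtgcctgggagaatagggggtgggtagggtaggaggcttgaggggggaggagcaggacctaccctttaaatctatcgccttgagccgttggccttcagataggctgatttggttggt

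The first run of capitals, bases 99 to 106, is the 8-letter octamer ATGCAAAT on the reverse strand with 1 mismatch, and the next run, bases 108 to 113, is an exact match to the Sox-type word CATTGT on the reverse strand. The Nanog promoter is known for a composite element of Oct4 and Sox2. Exact matches were searched on both strands, and CATTGT occurred in 12.6% of 32851 promoters of 300 bases. The octamer occurred exactly in 1.74% of promoters and with at most 1 mismatch in 18.6%. The other words searched, TGTCA for a Tgif core (45.4% of promoters), CAGACA for a Smad-type word (21.0%) and TAATGG for a Nanog-type word (7.73%), had no exact match in these 300 bases. The words are short, and a match is not a binding site. RefSeq lists 2 starts for Nanog, whose promoters share 224 bases, and the downstream one is printed.

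The 57 peaks formed 20 regions when overlapping peaks were joined, spread unevenly over the interval. All 5 factors were present in 6 regions, whereas 9 regions held a single factor. Genome-wide, all 5 factors met in 665 of 33152 regions, or 2.01%. A single factor was present in 14329 of the 33152, a share near that of the interval. Of the 6 regions, 3 lay at and upstream of the Nanog start, at 0.133, 4.69 and 44.5 kb, and 3 lay downstream, at 55.1, 58.2 and 63.1 kb. The last crosses the edge of the interval: its Tgif1 and Tgif2 peaks reach inside, and its Hdac1, Nanog and Smad3 peaks begin beyond the edge. The other 5 were wholly inside. Extending the interval by 50 kb on each side brought the peak numbers only to 17 for Nanog, 7 for Smad3, 12 for Tgif1, 17 for Tgif2 and 12 for Hdac1.

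**Figure D1:**
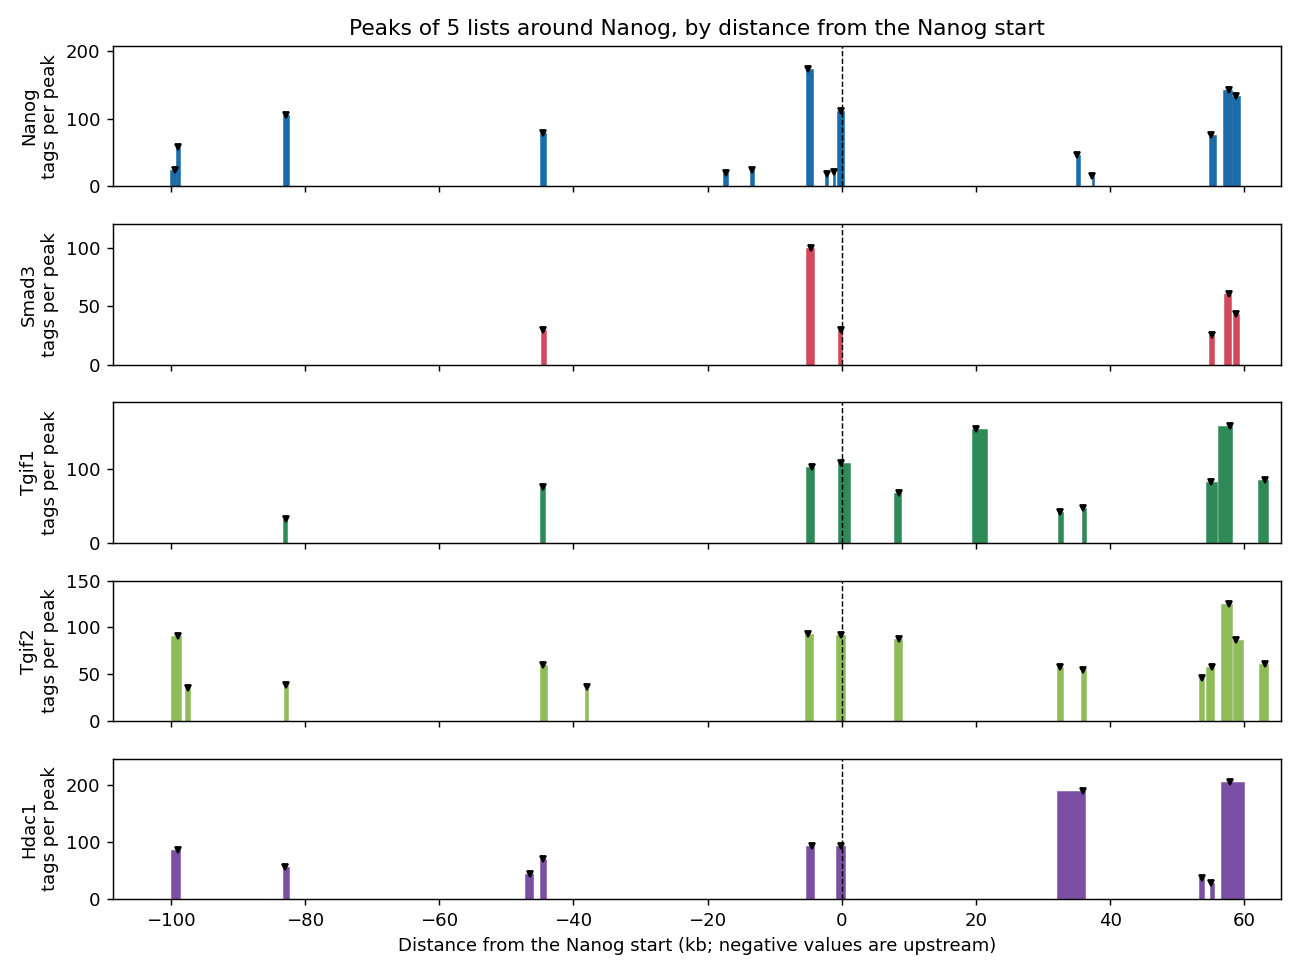
Tags per peak (y axis, a separate scale for each list) against distance from the Nanog start in kb (x axis). Each bar spans 1 peak from start to end, the triangle marks its summit and the dashed line the Nanog start. Peaks of all 5 lists stand at the start, 4.69 kb upstream, 44.5 kb upstream and between 55.1 and 58.8 kb downstream, and the stretch between the regions 13.3 and 44.5 kb upstream holds 1 Nanog and 1 Tgif2 peak.

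For the number of peaks, the interval was set against 15480 fixed tiles of the same 170 kb over the range that the lists cover. The median tile held 0 peaks in each list. At least as many peaks as here stood in 0.0129% of tiles for Smad3, 0.123% for Nanog, 0.310% for Tgif2, 0.963% for Tgif1 and 1.05% for Hdac1. At least 6 regions with all 5 factors stood in 0 of the 15480 tiles, and 3 tiles held 5. The interval was laid around its genes and chosen with results of these lists known, while the tiles have fixed borders, so these shares describe the density and are no test.

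At the Nanog start the summits of the 5 peaks lay within 50 bp. Nanog occupied its own promoter with a peak of 111 tags (exact Poisson 95% interval 91.3 to 134, which covers counting error only, here and below) and a 29.6-fold enrichment. The Tgif1 peak held 108 tags (88.6 to 130) at 8.44-fold, the Hdac1 peak 94 tags (76.0 to 115) at 9.13-fold, the Tgif2 peak 92 tags (74.2 to 113) at 8.26-fold and the Smad3 peak 30 tags (20.2 to 42.8) at 7.49-fold. Fold is the authors' enrichment of a peak over background. It and the tag number come from the authors' peak calling and are ranked only within a list, because libraries can differ in depth and background. Within their lists 4 of these peaks stood high by tags, with rank 1300 of 17272 for Nanog, 1225 of 16506 for Hdac1, 1829 of 16400 for Tgif1 and 3682 of 19129 for Tgif2, while the Smad3 peak was nearer the middle at rank 494 of 1226. By fold the Tgif1, Tgif2 and Smad3 peaks stood low, at ranks 13936, 16768 and 1042. The Hdac1 peak was at rank 10596 by fold and the Nanog peak at 6545.

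The region 4.69 kb upstream held the single peak with the most tags of the interval in the Nanog and Smad3 lists. The Nanog peak there had 173 tags (148 to 201), and its interval lies above that of the promoter peak, though it overlaps that of a Nanog peak 57.8 kb downstream with 142 tags (120 to 167). The Smad3 peak had 100 tags (81.4 to 122) at 14.8-fold, against 30 tags at the promoter. It ranked 35 of 1226 by tags and 145 by fold, and was the highest Smad3 peak of the interval by both measures. For the other proteins the upstream region and the promoter had close tag numbers. Tgif1 had 103 tags (84.1 to 125) upstream and 108 at the promoter, Tgif2 93 and 92, and Hdac1 93 and 94, and in each case the 2 intervals overlapped. By fold Tgif1 stood at 11.7 upstream and 8.44 at the promoter, Tgif2 at 9.70 and 8.26, and Hdac1 at 9.12 and 9.13. The Nanog folds were 31.3 and 29.6.

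The region 44.5 kb upstream was narrower, spanning 1071 bp over the 5 peaks. Its Hdac1 peak was among the stronger of the list by fold, at 17.1-fold and rank 2712 of 16506, with 70 tags (54.6 to 88.4). Tgif1 had 76 tags there in 686 bp, which at 111 tags per kb was the densest Tgif1 peak of the interval. Nanog had 79 tags, Tgif2 60 and Smad3 30. The Smad3 peak was at 5.17-fold, near the bottom of its list at rank 1210 of 1226, although its tag number placed it at rank 494.

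Downstream of Nanog, on the side of Slc2a3, the peaks with the most tags lay around 58.2 kb. The region centred at 58.2 kb spanned 3965 bp and held 8 peaks, with 2 each for Nanog, Smad3 and Tgif2 and 1 each for Tgif1 and Hdac1. The Hdac1 peak was 3492 bp wide and had 205 tags (178 to 235), rank 58 of 16506 by tags but 7547 by fold. The Tgif1 peak had 159 tags (135 to 186), rank 501 of 16400 by tags, and the first Tgif2 peak 125 tags (104 to 149). The Hdac1, Tgif1 and first Tgif2 peaks each had the most tags of their list in the interval. Their counting intervals overlap those of other peaks, however. These include Hdac1 at 35.9 kb with 190 tags (164 to 219) and Tgif1 at 20.1 kb with 155 (132 to 181), both downstream. For Tgif2, a peak 4.97 kb upstream had 93 (75.1 to 114). The 2 Nanog peaks had 142 and 133 tags, together 275, and the 2 Smad3 peaks 60 and 43, together 103, against 173 and 100 tags in the single peaks 4.69 kb upstream. The 2 Smad3 numbers differ by less than their counting error. Nanog and Smad3 had summits at 57.8 and 58.8 kb, and Tgif2 at 57.8 and 58.7 kb, all within the single broad Hdac1 peak. The Tgif1 peak did not reach the second of these places. The second Smad3 peak was at only 4.88-fold, rank 1217 of 1226 by fold.

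The neighbouring region at 55.1 kb was the place of the second strongest Nanog enrichment of the interval, at 52.6-fold with 76 tags (59.9 to 95.1). Tgif1 had 82 tags there, Tgif2 58, Hdac1 29 and Smad3 25. The Hdac1 peak was the weakest of the interval by tags, at rank 15521 of 16506. At 63.1 kb Tgif1 had 86 tags and 17.6-fold, its highest fold of the interval, and Tgif2 had 61 tags. The peaks of that region beyond the edge held 55 tags for Hdac1, 31 for Nanog and 31 for Smad3.

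Far upstream, on the side of Dppa3 and Gdf3, the region at 82.9 kb carried the strongest Nanog enrichment of the interval and no Smad3 peak. Its Nanog peak, chr6:122574272-122575130, reached 120-fold and rank 485 of 17272 by fold, with 105 tags (85.9 to 127). The Hdac1 peak there had 56 tags at 18.3-fold, the highest Hdac1 fold of the interval. Tgif1 had only 32 tags (21.9 to 45.2), close to the list's minimum of 30, and Tgif2 38 tags, against a list minimum of 33. The 4 summits lay between 82853 and 82921 bp upstream.

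At 99.1 kb upstream an Hdac1 and a Tgif2 peak overlapped each other and a pair of adjacent Nanog peaks, with no Tgif1 and no Smad3 peak. Tgif2 had 91 tags (73.3 to 112) and Hdac1 87 (69.7 to 107), and the Nanog peaks had 58 and 25 tags. A separate Tgif2 peak of 35 tags followed at 97.5 kb. The absence of a peak in a list says that none was called there at the authors' threshold, which the sources used here do not give. It does not show that no tags were present.

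Regions with part of the factors were few besides these. A region from 32.6 to 36.0 kb downstream held Tgif1, Tgif2, Hdac1 and Nanog. Its peaks were joined by an Hdac1 peak of 4121 bp with 190 tags (164 to 219) at 8.82-fold. That peak ranked 77 of 16506 by tags but 11221 by fold. Inside the region Tgif1 and Tgif2 had 2 peaks each, at 32.6 kb with 42 and 58 tags, and at about 36 kb with 47 and 55 tags. The Nanog peak of 47 tags lay between these centres, at 35.1 kb. Tgif1 and Tgif2 shared a region at 8.49 kb downstream without the others, with 67 tags (51.9 to 85.1) for Tgif1 and 88 (70.6 to 108) for Tgif2. Tgif2 and Hdac1 met at 53.6 kb with 46 and 38 tags.

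Single-factor regions mostly held few tags, with 1 exception, whereas their folds varied. Of all regions genome-wide, 22.6% held Nanog alone, 10.3% Tgif2 alone, 5.58% Hdac1 alone and 4.50% Tgif1 alone. Nanog was alone in 5 of the 20 regions here, at 17.2, 13.3, 2.16 and 1.10 kb upstream and 37.4 kb downstream. These peaks held 16 to 25 tags at 9.60-fold to 38.9-fold, the highest fold being that at 13.3 kb, against 25 to 173 tags for the 10 Nanog peaks shared with another list. Over the whole Nanog list, peaks without any other factor had a median of 24 tags and shared ones 37. Tgif2 was alone at 2 places upstream, at 97.5 kb with 35 tags and 12.7-fold, and at 37.9 kb with 36 tags (25.2 to 49.8) and 23.2-fold. The peak at 37.9 kb had the highest Tgif2 fold of the interval, rank 3824 of 19129 by fold but 17095 by tags. Hdac1 was alone 46.5 kb upstream, with 45 tags and 11.6-fold. The exception by tags was a Tgif1 peak at 20.1 kb downstream, chr6:122677076-122679269. It held 155 tags (132 to 181), rank 547 of 16400, but a fold of only 5.26, rank 16325, and it was 2193 bp wide. No other list had a peak overlapping it, although Tgif1 peaks without company had a median of 39 tags over the list.

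Overlap between the lists was set beside that of each whole list. A peak of any other list overlapped 10 of 15 Nanog peaks (56.7% of the whole list), 6 of 6 Smad3 peaks (93.6%), 10 of 11 Tgif1 peaks (90.9%), 13 of 15 Tgif2 peaks (82.1%) and 9 of 10 Hdac1 peaks (88.8%), shares that were near those of the lists. Regions with all 5 factors held more: 6 of 15 Nanog peaks, against 4.73% of the list, 6 of 11 Tgif1 peaks (4.62%), 7 of 15 Tgif2 peaks (3.98%) and 5 of 10 Hdac1 peaks (4.46%). The interval's Nanog peaks coincided with Smad3 in 6 of 15 cases, against 6.43% of all Nanog peaks. They coincided with Hdac1 in 10 of 15 (45.9% of the list), with Tgif2 in 9 (36.7%) and with Tgif1 in 7 (35.8%). In percentage points, Smad3 was the partner whose share differed most from the whole list in the other 3 lists too, meeting 6 of 11 Tgif1 peaks (5.04% of the list), 7 of 15 Tgif2 peaks (4.08%) and 5 of 10 Hdac1 peaks (5.90%). The peaks share 1 neighbourhood and are not independent, so no p is given.

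The pairs among Tgif1, Tgif2 and Hdac1 were closer to their lists than the pairs in which Smad3 was the overlapping list. They were not all closer than the pairs with Nanog. Tgif2 overlapped 10 of 11 Tgif1 peaks, against 79.2% of the list, and Tgif1 overlapped 10 of 15 Tgif2 peaks, against 68.0%. Hdac1 overlapped 9 of 11 Tgif1 peaks (66.1% of the list) and 12 of 15 Tgif2 peaks (59.9%). Tgif1 overlapped 7 of 10 Hdac1 peaks (64.6%) and Tgif2 9 of 10 (68.4%). Nanog overlapped 7 of 11 Tgif1 peaks (36.7%), 9 of 15 Tgif2 peaks (32.2%) and 8 of 10 Hdac1 peaks (45.6%). The 6 Smad3 peaks each met Nanog (90.3% of the list), Tgif2 (63.7%) and Hdac1 (81.1%), and 5 of the 6 met Tgif1 (67.5%). All 6 lay in regions with all 5 factors, which hold 56.6% of the Smad3 list.

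**Figure D2:**
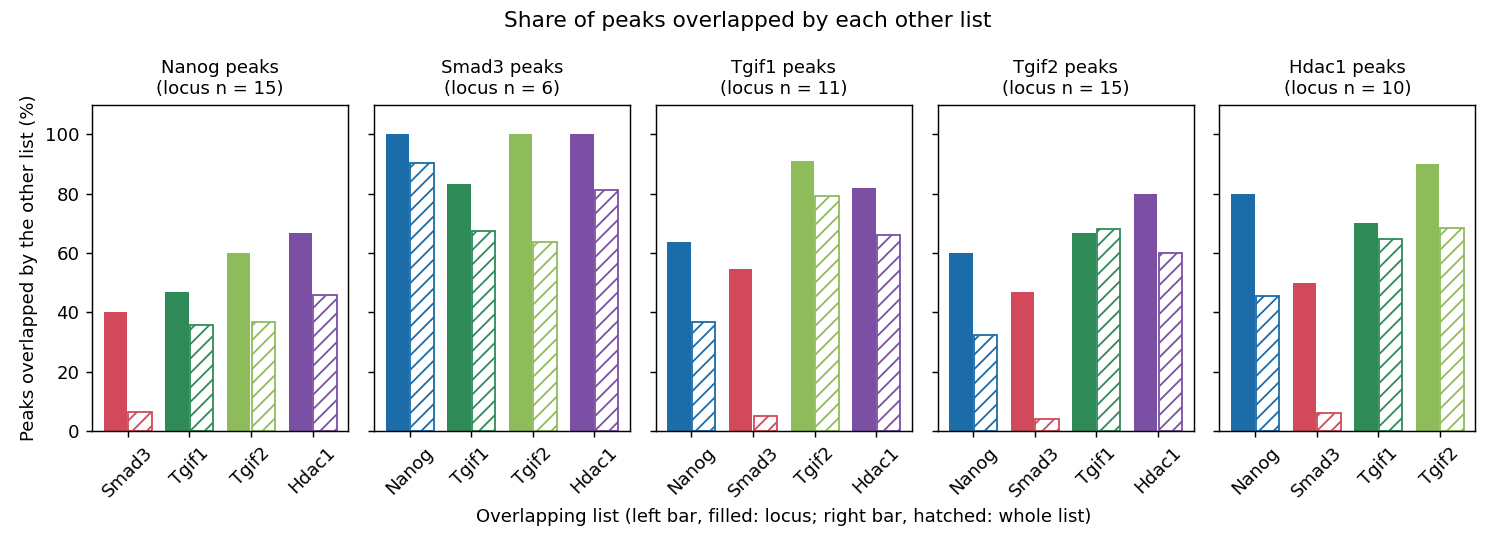
Share of the peaks of each list (panels) that a peak of another list overlapped by at least 1 bp, in percent. Filled bars are the peaks of the interval, with their number in each panel title, and hatched bars the whole list. The filled bar exceeds the hatched one in 19 of 20 pairs, and Tgif2 peaks with Tgif1 (66.7% against 68.0%) are the exception.

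Ranks of the interval's peaks depended on the measure. By tags, 8 of 15 Nanog, 3 of 6 Smad3, 6 of 11 Tgif1, 6 of 15 Tgif2 and 6 of 10 Hdac1 peaks were in the top 25% of their lists, a class of 25.6%, 25.9%, 25.4%, 25.3% and 25.0% of the lists with ties included. By fold only 2 Nanog, 1 Smad3, 0 Tgif1, 1 Tgif2 and 2 Hdac1 peaks were, against 25.1%, 25.0%, 25.0%, 25.2% and 25.0%. The median Tgif1 peak of the interval had 82 tags, against 54 in the rest of the list, yet a fold of 12.4 against 13.3. For Hdac1 the medians were 78.5 against 47 tags and 10.2-fold against 10.7-fold, and for Nanog 58 against 30 tags and 25.0-fold against 23.7-fold. Tgif2 differed least by tags, with medians of 60 against 57, and had 12.0-fold against 14.1-fold. Peaks of the interval were also wider in the median, at 1220 against 933 bp for Tgif1, 1226 against 1038 bp for Hdac1 and 836 against 633 bp for Nanog. The same held for Tgif2, at 1136 against 943 bp, and for Smad3, at 866 against 688 bp. The part of peak width in the tag ranks was not tested.

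**Figure D3:**
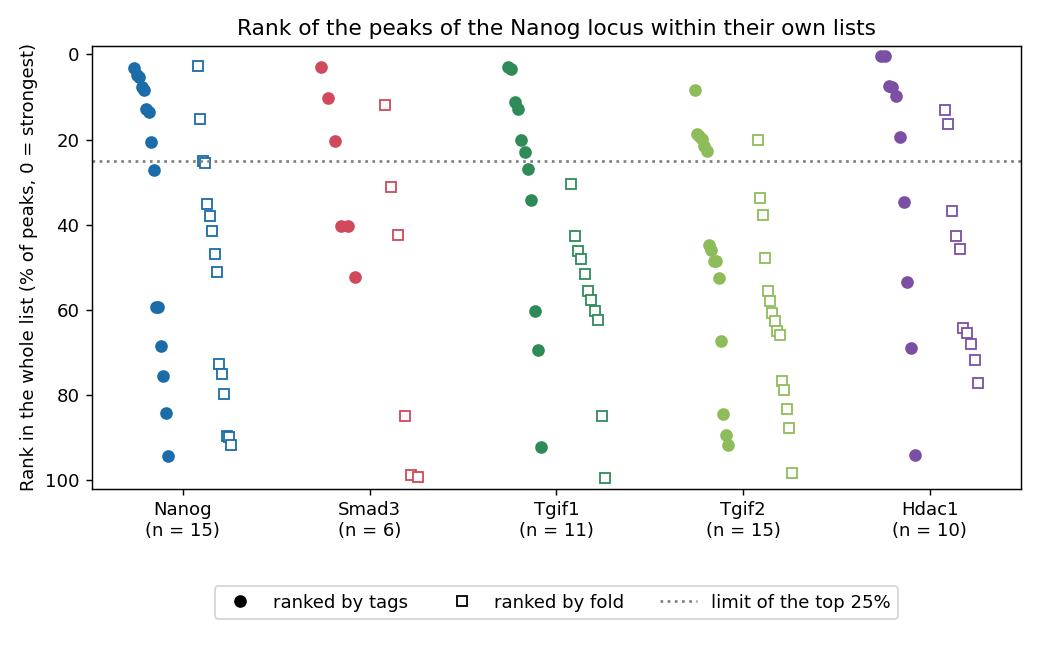
Rank of each peak of the interval in its own list, as the percentage of peaks ranked at or above it (y axis, 0 at the top is strongest), for the 5 lists. Filled circles are ranks by tags, open squares ranks by fold, and the dotted line is the limit of the top 25%. Of the 11 Tgif1 peaks, 6 lie above the line by tags and 0 by fold.

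A limit on fold lowered the number of regions with all 5 factors, in the interval and genome-wide. When peaks under the median fold of their list were left out, 0 of the 15 regions left in the interval held all 5 factors. Genome-wide 178 of 20523 regions did. Without the limit the numbers were 6 and 665. The 15 regions are too few to tell 0 from the genome-wide share. For Tgif2, 0 of its 7 peaks in these regions reached the list's median of 14.1-fold, whereas 54.3% of Tgif2 peaks in the 665 regions with all 5 factors did. Among the other lists, 5 of 6 Nanog, 3 of 6 Smad3, 3 of 6 Tgif1 and 2 of 5 Hdac1 peaks reached their medians, against 78.5%, 52.0%, 64.2% and 65.9% of such peaks genome-wide. By tags the median of these peaks was higher in the interval than genome-wide in each of the 5 lists. Single peaks could still stand low, as the Hdac1 peak at 55.1 kb, with 29 tags, at rank 15521 of 16506. The median Tgif2 peak of these regions had 86 tags in the interval and 77.5 genome-wide, and the median Tgif1 peak 94.5 and 76.

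The interval took a larger share of the tags in peaks for Smad3 than for the other proteins. Its 6 Smad3 peaks held 288 of 43227 tags, or 0.666% (exact binomial 95% interval 0.592 to 0.748), in 5.29 kb of peaks. The share was 0.128% (0.120 to 0.136) for Nanog with 1050 tags in 12.1 kb, and 0.100% (0.0939 to 0.107) for Hdac1 with 907 tags in 15.8 kb. For Tgif1 it was 0.0877% (0.0822 to 0.0934) with 957 tags in 14.0 kb, and for Tgif2 0.0758% (0.0713 to 0.0806) with 1022 tags in 16.1 kb. The Smad3 list is short, and 0.489% of its peaks lie here. Mean tags per peak were 48.0 in the interval and 35.2 in the rest for Smad3, 70.0 and 47.6 for Nanog, 90.7 and 54.8 for Hdac1, 87.0 and 66.5 for Tgif1, and 68.1 and 70.4 for Tgif2. Sides of the Nanog start differed between lists: Nanog had 636 tags in 10 peaks upstream and 414 in 5 downstream, whereas Tgif1 had 319 in 4 upstream and 638 in 7 downstream. The sides were closer for Tgif2 (445 and 577 tags), Hdac1 (445 and 462) and Smad3 (160 and 128). Sides were taken by summit, so the peaks that cover the approximate start all counted as upstream, and the balance depends on that. They held 111 tags for Nanog, 108 for Tgif1, 92 for Tgif2, 94 for Hdac1 and 30 for Smad3. The downstream sum of Tgif1 includes its lone peak of 155 tags at 5.26-fold. The interval reaches farther upstream than downstream of the start. In the region at 63.1 kb its edge leaves out a Nanog peak of 31 tags, while the Tgif1 peak of 86 tags is counted.

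Summits were compared in the 6 regions with all 5 factors, taking for each factor its peak with the most tags. At the Nanog start the 5 summits spanned 50 bp, from 106 to 156 bp upstream. Of the 665 regions with all 5 factors, 92.5% had a span at least as wide, and the median span was 147 bp. Summits spanned 85 bp in the region 44.5 kb upstream, 105 bp at 55.1 kb and 83 bp at 58.2 kb downstream, and 249 bp at 63.1 kb. Nanog and Hdac1 summits were 1 bp apart at the Nanog start, Tgif1 and Smad3 summits 4 bp apart, and Tgif1 and Tgif2 summits 7 bp apart.

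In the region 4.69 kb upstream the summits fell into 2 places. Nanog and Tgif2 summits lay 4982 and 4967 bp upstream, 15 bp apart. Smad3, Tgif1 and Hdac1 summits lay 4546, 4505 and 4450 bp upstream, so the nearest summits across the gap were 421 bp apart. The whole span of 532 bp was reached or exceeded in 18.0% of the 665 regions. The paralogs Tgif1 and Tgif2 were 462 bp apart here, a distance reached in 7.37% of these regions, where their median was 39 bp. Nanog and Smad3 were 436 bp apart, reached in 5.56%, with a median of 32 bp. The same division, with Nanog and Tgif2 within 100 bp, the other 3 within 100 bp and the centres over 300 bp apart, was found in 2 of the 665 regions, this one included. Those limits were set after the summits had been seen. The 5 peaks themselves all covered both places, and a list gives only 1 summit per peak. Nanog and Tgif2 were also the 2 proteins pulled down with streptavidin beads, and the other 3 were pulled down with antibodies. Protein and pulldown method cannot be told apart in this division.

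**Figure D4:**
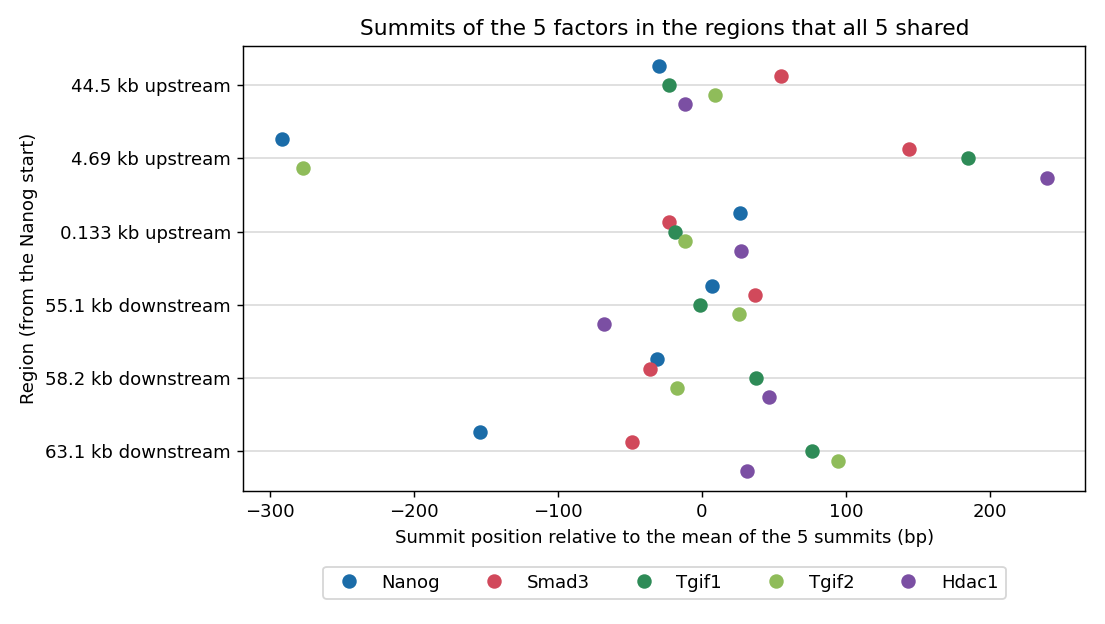
Summit of each factor's peak with the most tags, in bp from the mean of the 5 summits (x axis), in the 6 regions shared by all 5 factors (rows, named by the mean distance of their peaks in the interval from the Nanog start). Colours are the 5 lists. Summits span 50 bp at the Nanog start and 532 bp in the region 4.69 kb upstream, where Nanog and Tgif2 stand apart from Smad3, Tgif1 and Hdac1. Nanog and Tgif2 were pulled down with streptavidin beads and the others with antibodies, so protein and method cannot be told apart.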

How the data were processed

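Per the submitters' processing notes, the authors' tools were MACS and BWA 0.5.9-r16 and their genome build was mm9, without settings. The control of each peak call, its threshold and the library depths are not given in the sources used here. The lists deposited by the authors have no header, so columns were identified from their values. The deposited ratio is a fold enrichment per peak, the deposited count a whole number of tags per peak, and 3 equal columns (unit other, deposited positions) give the summit. Whether starts count from 0 or 1 is not stated, so coordinates are as deposited. Regions were unions of peaks overlapping by at least 1 bp, and a peak belonged to the interval when it overlapped it. Ranks were within a list, ties sharing the best rank. Tag counts have exact Poisson and shares exact Clopper-Pearson 95% intervals, for counting error only, since PCR copies are not independent. Promoters are RefSeq's, GRCm38.p6, which held Nanog among the 3 genes. Named peaks were, in each list, those highest by fold or by tags, those at the Nanog start, those of regions with 4 or 5 factors and, chosen after their values were seen, those of the remaining regions. The interval, the genes and the comparisons were chosen with earlier results of these data known. Overlap counts were tested on shifted copies of listed Nanog peaks, and region and tile counts on made-up intervals. Overlap counts were also checked against bedtools 2.31.1, where 0 of 20 pairs differed. Python 3.11.15, NumPy 2.4.6, pandas 2.3.3, SciPy 1.17.1 and matplotlib 3.10.9 were used.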

Additional observations from a re-analysis of the deposited data

How the results depend on the processing

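Of 65 alternative values for the main results, 38 stayed within 1.5 times the reported count or within its 95% interval, and 27 did not. Leaving out the peaks under the median fold of their list kept 8 Nanog, 3 Smad3, 4 Tgif1, 4 Tgif2 and 5 Hdac1 peaks in the interval, of which 5, 3, 2, 1 and 2 overlapped another list. It left 3 regions with Nanog alone, 0 with all 5 factors and 0 with Nanog, Tgif1, Tgif2 and Hdac1, in place of 5, 6 and 8, and each list then holds fewer peaks to meet. Genome-wide the same limit left 178 regions with all 5 factors in place of 665. The other counts at this limit were not set beside those of the whole lists, so they cannot be read as particular to the interval. Ranking by tags in place of fold put 8 Nanog, 3 Smad3, 6 Tgif1, 6 Tgif2 and 6 Hdac1 peaks in the top 25%, and ranking by tags per bp 8, 3, 4, 3 and 7. Weighting peaks by tags per bp lowered the share of tags to 0.107% for Nanog, 0.546% for Smad3, 0.0739% for Tgif1 and 0.0768% for Hdac1, and placed Tgif1 below Tgif2 at 0.0750%, while the order of the other lists was as before. The cause was not tested. Regions with all 5 factors numbered 5 both when peaks within 500 bp were merged, which joins the regions at 55.1 and 58.2 kb, and when summits within 200 bp were chained. With no replicates and unknown depth, precision beyond counting error cannot be given. No paired analysis was possible because each protein had 1 library.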
